A study of Homo sapiens with 3 samples.

Results

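The genes described here encode integrins, laminins, collagens, matrix metalloproteinases (MMPs) and tissue inhibitors of metalloproteinases (TIMPs) of H1975 cells. They were chosen by symbol alone from the deposited gene table, and 50 of its 16662 genes matched. These were 9 integrin alpha chains, 8 integrin beta chains, 7 laminin chains, 12 collagen chains, 10 MMPs and 4 TIMPs. The integrin alpha chain ITGA2B is also listed, but its symbol did not match the rule and it is not among the 50. All 50 averaged 1 CPM or more, the filter used for counts of genes.

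H1975 is an established EGFR-mutant lung adenocarcinoma line. RNA was sequenced from 1 library of cells transfected with siHHLA3-1, 1 with siHHLA3-3 and 1 with siNC, the control. The first pair are differently numbered small interfering RNAs (siRNAs) against HHLA3, and the labels do not call them replicates. Transfection took place at about 70% confluency, followed by 6 h without serum and 24 h in medium with 10% serum, in all groups.

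Integrins are receptors made of 1 alpha and 1 beta chain that bind cells to the matrix. Laminins are trimers of an alpha, a beta and a gamma chain and build the basement membrane under an epithelium. Collagens are triple helices that form fibrils, networks or anchors, MMPs cut matrix proteins, and TIMPs inhibit MMPs. In epithelia, the integrin pair ITGA6 and ITGB4, the transmembrane collagen COL17A1, the laminin that holds LAMA3 and LAMB3, and the anchoring fibril collagen COL7A1 join the cell to the tissue beneath it.

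Library totals lay between 26950852 and 35069930 reads, and the 50 genes took 0.564% to 0.655% of them. HHLA3 had 55 counts with siHHLA3-1, 20 with siHHLA3-3 and 192 with siNC, or 1.55, 0.735 and 5.99 CPM in the same order. All 7 epithelial markers examined were listed, with summed levels of 5408, 4547 and 5490 TPM with siHHLA3-1, siHHLA3-3 and siNC. None of 6 fibroblast markers has a value here, nor have the leukocyte markers PTPRC, CD3E and CD68 or the endothelial PECAM1, VWF and TEK. Of 5 endothelial markers CDH5 and KDR were listed, with sums of 12.8, 2.89 and 5.4 TPM. The leukocyte marker CD14 had 21.2 TPM with siHHLA3-1, 14.1 TPM with siHHLA3-3 and 20.2 TPM with siNC, and ITGB2, one of the 50, had 16.3, 18.8 and 14.6 TPM. The part of other cells in the results was not tested. Batch and siRNA cannot be told apart, because the labels give each library a batch of its own. There were no replicates, so no p-value was computed, and all differences describe these 3 libraries. Intervals are exact 95% intervals (Poisson for a level, binomial for a ratio) and cover counting error only.

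Levels of a gene are given in CPM, counts scaled by library total and a composition factor. Levels of different genes are compared in TPM, the authors' values scaled by gene length. The lengths behind them were not checked, and contrasts between genes in TPM rest on those lengths. Folds are ratios of CPM, and log2 ratios are of CPM + 1, which pulls low genes toward 0. A gene counted as different when its log2 ratio reached a 2-fold difference.

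With siHHLA3-1 over siNC, 1 of the 50 genes was at least 2-fold higher, against 0.973% of all 13879 genes past the filter. That gene was COL1A1, and 0 were at least 2-fold lower, against 0.382% of all genes. With the deposited FPKM plus 1 in place of CPM, COL1A1 missed 2-fold, at 0.76 on the log2 scale. At 1.5-fold, 7 of the 50 were higher (5.03% of all genes) and 1 was lower (3.34%). The 7 were COL1A1, COL27A1, COL7A1, ITGA5, ITGA7, ITGAX and MMP13, and the lower gene was MMP1. The median log2 ratio of the 50 was 0.24, beside -0.01 for all genes. Of the 50, 37 were above 0, beside 6693 of all 13879 genes.

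With siHHLA3-3 over siNC, 2 of the 50 were at least 2-fold higher, COL7A1 and COL27A1, against 0.807% of all genes. As with siHHLA3-1, 0 were at least 2-fold lower, where 1.48% of all genes were. COL27A1 missed 2-fold when 1 was added to the deposited TPM or FPKM, at 0.99 and 0.72 on the log2 scale. Its TPM without the added 1 was 9.32 with siHHLA3-3 and 4.19 with siNC. At 1.5-fold, 4 were higher, COL13A1, COL27A1, COL7A1 and LAMB3 (3.65% of all genes), and ITGB6 was lower (5.57%). The median log2 ratio of the 50 was 0.05, beside -0.01 for all genes. Of the 50, 27 were above 0, beside 6738 of all 13879 genes. Both comparisons use the same siNC library.

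With siHHLA3-3 over siHHLA3-1, 0 of the 50 were at least 2-fold higher (0.757% of all genes) and 3 were lower (2.12%). The 3 were COL1A1, ITGAX and ITGB6. With the deposited FPKM plus 1 in place of CPM, 1 was lower, ITGB6. The filter was then a mean of at least 1 FPKM, which 40 of the 50 passed. At 1.5-fold, 4 were higher (4.4% of all genes) and 8 lower (7.82%). The higher were COL13A1, COL7A1, LAMB3 and MMP1. The lower included ITGAV, ITGB3, LAMA5, MMP13 and MMP24 beside those 3.

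**Figure D1:**
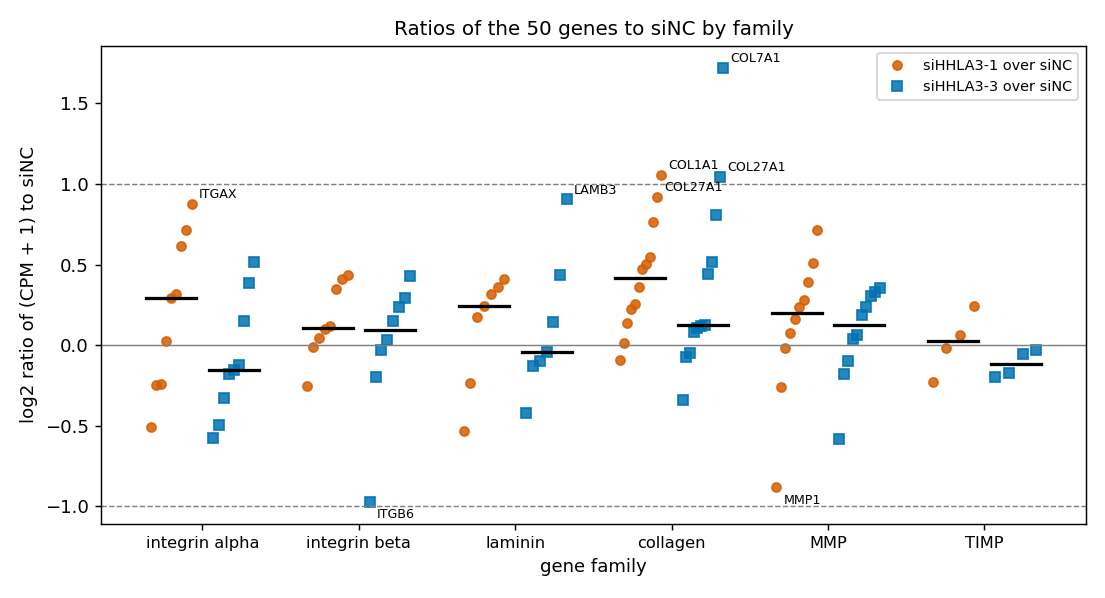
Log2 ratios of CPM + 1 to siNC (vertical axis) for each of the 50 genes, by family (horizontal axis), for siHHLA3-1 (circles) and siHHLA3-3 (squares); black bars are family medians and dashed lines mark 2-fold. The collagen medians were 0.42 with siHHLA3-1 and 0.12 with siHHLA3-3, and COL7A1 is the highest point at 1.72 with siHHLA3-3.

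Integrin alpha chains set which matrix protein a receptor binds. Their median log2 ratio was 0.29 with siHHLA3-1 and -0.15 with siHHLA3-3. In the same order, 6 of 9 and 3 of 9 were above 0, beside 6693 and 6738 of all 13879 genes. The fibronectin receptor chain ITGA5 stood at 1036 CPM with siHHLA3-1, 884 CPM with siHHLA3-3 and 677 CPM with siNC. It exceeded siNC 1.53-fold with siHHLA3-1 (1.5 to 1.56) and 1.31-fold with siHHLA3-3 (1.28 to 1.33). The laminin receptor chain ITGA3 was lower in both knockdown libraries, at 743, 590 and 880 CPM in the same order. That was 1.18-fold lower with siHHLA3-1 (1.17 to 1.20) and 1.49-fold lower with siHHLA3-3 (1.46 to 1.52). In TPM, ITGA5 held 44.9%, 42.2% and 33.0% of the alpha chain total with siHHLA3-1, siHHLA3-3 and siNC, and ITGA3 24.2%, 21.2% and 32.2%. The chains were thus near equal per length with siNC, at 314 TPM for ITGA5 and 307 TPM for ITGA3, and ITGA5 led in both knockdown libraries, at 500 and 428 TPM against 270 and 215 TPM for ITGA3.

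The collagen receptor chain ITGA2 was high in the siHHLA3-3 library alone, at 298 CPM with siHHLA3-1, 418 CPM with siHHLA3-3 and 293 CPM with siNC. Its ratio to siNC was 1.02 with siHHLA3-1 (0.990 to 1.05) and 1.43 with siHHLA3-3 (1.39 to 1.47). ITGAV, which pairs with several beta chains in receptors for vitronectin, had 192, 111 and 157 CPM in the same order. It lay 1.22-fold above siNC with siHHLA3-1 (1.18 to 1.27) and 1.41-fold below it with siHHLA3-3 (1.35 to 1.48). ITGA6, the partner of ITGB4, was below siNC in both, 1.18-fold with siHHLA3-1 (1.14 to 1.22) and 1.09-fold with siHHLA3-3 (1.05 to 1.13), at 201, 219 and 238 CPM.

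Among the low alpha chains, ITGA7, a laminin receptor chain best known from muscle, had 9.60, 6.17 and 5.46 CPM with siHHLA3-1, siHHLA3-3 and siNC. The leukocyte chain ITGAX had 6.22, 2.13 and 2.93 CPM. As a CPM ratio ITGAX was 2.12-fold higher with siHHLA3-1 than with siNC (1.66 to 2.73), but its log2 ratio of CPM + 1 was 0.88 and so missed 2-fold. Of the endothelial markers listed, CDH5 was at 19.2, 3.01 and 7.95 CPM, also highest with siHHLA3-1 and lowest with siHHLA3-3, while KDR was at 2.79, 1.98 and 1.71 CPM, lowest with siNC. ITGAE, which pairs with ITGB7 in lymphocytes and binds E-cadherin, was 1.45-fold lower with siHHLA3-1 (1.30 to 1.63), at 15.3, 19.9 and 22.3 CPM. ITGA10, a collagen receptor chain of cartilage, had between 1.95 and 3.15 CPM.

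Beta chains link the receptor to the cytoskeleton. Of the 8, ITGB6 differed most from siNC with siHHLA3-3. ITGB6, the partner of ITGAV in a receptor that activates latent TGF-beta, had 29.2 CPM with siHHLA3-1, 11.1 CPM with siHHLA3-3 and 22.7 CPM with siNC. It lay 1.29-fold above siNC with siHHLA3-1 (1.17 to 1.41) and 2.05-fold below it with siHHLA3-3 (1.79 to 2.35). The log2 ratio of CPM + 1 with siHHLA3-3 was -0.97 and so missed 2-fold. ITGB3, the beta chain of the vitronectin receptor, also lay on opposite sides of siNC, at 21.8, 13.7 and 15.9 CPM. ITGAV and both of these partners were thus highest with siHHLA3-1 and lowest with siHHLA3-3. ITGB5, another ITGAV partner, was highest with siHHLA3-3 instead, at 59.4, 74.0 and 54.6 CPM, or 1.35-fold above siNC (1.27 to 1.44). Of the 8 beta chains, 5 were higher with siHHLA3-3 than with siHHLA3-1, ITGB1 and ITGB8 among them, beside 6991 of all 13879 genes.

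ITGB1, the common partner of most alpha chains named above, differed least among the abundant beta chains with siHHLA3-1, at a ratio of 0.993 (0.968 to 1.02). Its level was 350, 391 and 352 CPM with siHHLA3-1, siHHLA3-3 and siNC. ITGB4, the hemidesmosome chain, was at 131, 160 and 156 CPM. ITGB1 held 36.0%, 37.2% and 35.9% of the beta chain total in TPM, and ITGB4 29%, 32.7% and 34.3%. ITGB1 has a listed pseudogene, ITGB1P1, with 453, 376 and 417 counts beside 12421, 10656 and 11296 for ITGB1, and reads may be divided between them. In TPM, ITGB1P1 had 74.6, 81.1 and 73.0 beside 85.6, 96.1 and 82.7 for ITGB1. ITGB1P1 is not part of the beta chain total. With siNC, ITGB1 had 352 CPM beside 156 CPM for ITGB4, but 82.7 TPM beside 79.0 TPM. The share of ITGB1 in TPM thus rests on the lengths used. ITGB2, the beta chain of leukocyte integrins, had 31.5, 36.1 and 29.3 CPM, although the leukocyte marker PTPRC has no value here. ITGB8 reached at most 8.37 CPM and ITGB7 at most 3.15 CPM. The antisense genes ITGB2-AS1 and ITGB8-AS1 are listed, and without knowledge of strand in the counting their reads cannot be told apart from those of the partner gene.

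**Figure D2:**
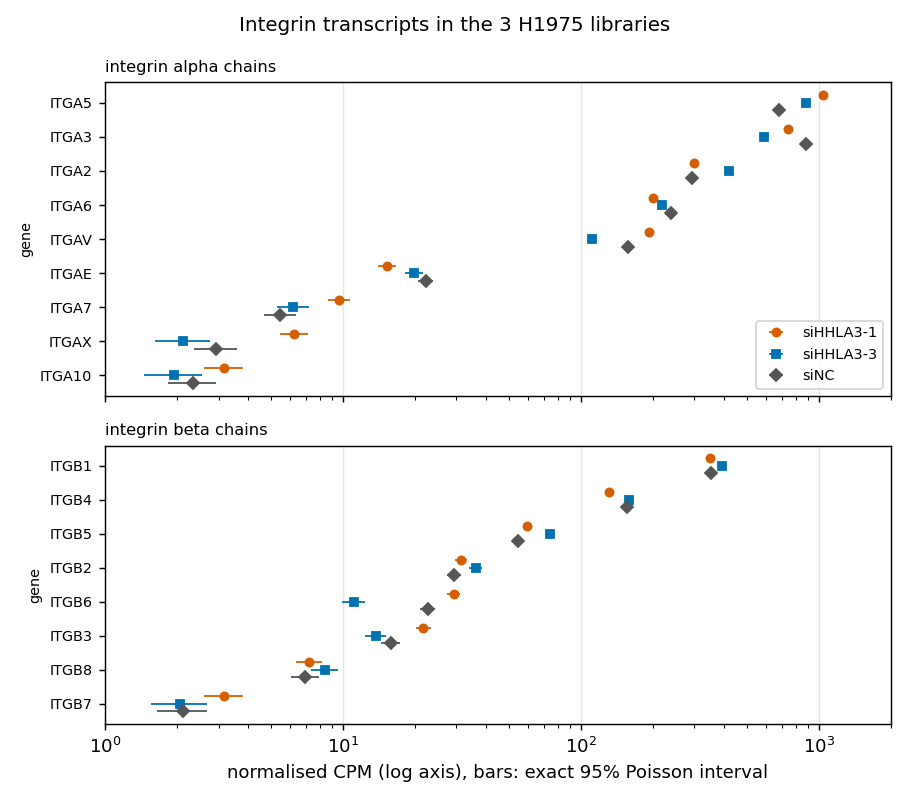
Normalised CPM (log axis) of the integrin alpha and beta chains (vertical axis) in the siHHLA3-1, siHHLA3-3 and siNC libraries; points are single libraries and bars are exact 95% Poisson intervals. ITGAV, ITGB6 and ITGB3 were each highest with siHHLA3-1 and lowest with siHHLA3-3, while ITGB5, ITGB1 and ITGB8 were highest with siHHLA3-3. ITGA5 was above siNC in both knockdown libraries.

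Laminins were dominated by LAMB3, the beta chain of the epithelial laminin. LAMB3 stood at 842 CPM with siHHLA3-1, 1331 CPM with siHHLA3-3 and 710 CPM with siNC. It exceeded siNC 1.18-fold with siHHLA3-1 (1.16 to 1.21) and 1.87-fold with siHHLA3-3 (1.84 to 1.91). The alpha chain of its trimer, LAMA3, did not follow, at 205, 170 and 182 CPM in the same order, with ratios of 1.13 with siHHLA3-1 (1.09 to 1.17) and 0.935 with siHHLA3-3 (0.899 to 0.972). In TPM, LAMB3 exceeded LAMA3 12.8-fold with siHHLA3-1, 24.4-fold with siHHLA3-3 and 12.2-fold with siNC, though these chains enter the trimer in equal numbers. The size of this excess rests on the gene lengths used for TPM.

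The other laminin alpha chain listed, LAMA5, belongs to the laminins of most adult basement membranes. It had 388 CPM with siHHLA3-1, 225 CPM with siHHLA3-3 and 302 CPM with siNC, 1.29-fold above (1.25 to 1.32) and 1.34-fold below siNC (1.30 to 1.38). LAMB2 was higher with siHHLA3-1 in particular, at 107, 88.4 and 80.0 CPM, while LAMB1, the alternative beta chain, was 1.48-fold lower with siHHLA3-1 (1.32 to 1.65), at 16.4, 23.4 and 24.2 CPM. LAMC1, a gamma chain, was at 368, 396 and 433 CPM. Over all 7 chains the median log2 ratio was 0.24 with siHHLA3-1 and -0.04 with siHHLA3-3. An antisense gene of LAMC1 is listed at 23 to 40 counts.

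Collagens had 11 of 12 chains above 0 with siHHLA3-1 and 9 of 12 with siHHLA3-3, beside 6693 and 6738 of all 13879 genes. COL7A1, the anchoring fibril collagen, stood at 29.6 CPM with siHHLA3-1, 58.4 CPM with siHHLA3-3 and 17.0 CPM with siNC. It exceeded siNC 1.74-fold with siHHLA3-1 (1.57 to 1.94) and 3.44-fold with siHHLA3-3 (3.11 to 3.79). COL27A1, a fibrillar collagen of cartilage, was at 33.4, 36.5 and 17.2 CPM, 1.95-fold (1.76 to 2.16) and 2.13-fold higher (1.91 to 2.36). COL17A1, the hemidesmosome collagen, was also above siNC in both, at 325, 310 and 229 CPM. It held 46.9%, 48.2% and 43.5% of the collagen total in TPM with siHHLA3-1, siHHLA3-3 and siNC, the largest share in each.

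COL1A1, the main chain of type I collagen, was higher with siHHLA3-1 alone. It had 24.5 CPM with siHHLA3-1, 10.9 CPM with siHHLA3-3 and 11.3 CPM with siNC, a ratio to siNC of 2.18 (1.93 to 2.47) and of 0.966 (0.826 to 1.13). COL5A1 and COL5A2, chains of the type V collagen that is built into type I fibrils, were also highest with siHHLA3-1, at 35.0, 27.3 and 24.9 CPM and at 7.74, 5.44 and 4.99 CPM in the same order. With siHHLA3-1 they were 1.40-fold (1.28 to 1.53) and 1.55-fold higher (1.27 to 1.90). COL13A1, a transmembrane collagen, was instead high with siHHLA3-3 alone, at 5.72, 10.7 and 5.64 CPM, or 1.89-fold above siNC (1.56 to 2.29).

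COL6A1 and COL6A2 are chains of the same type VI collagen, and kept a near-constant proportion, 1.39, 1.32 and 1.29 TPM of COL6A1 per TPM of COL6A2. COL6A1 was at 90.5, 76.3 and 70.2 CPM and COL6A2 at 62.7, 55.5 and 52.4 CPM. COL18A1, the basement membrane collagen that yields endostatin, was the one collagen below siNC in both, at 90.1, 75.6 and 96.2 CPM. It was 1.07-fold lower with siHHLA3-1 (1.02 to 1.12) and 1.27-fold lower with siHHLA3-3 (1.20 to 1.35). COL9A3 and COL15A1 had between 2.09 and 5.38 CPM.

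**Figure D3:**
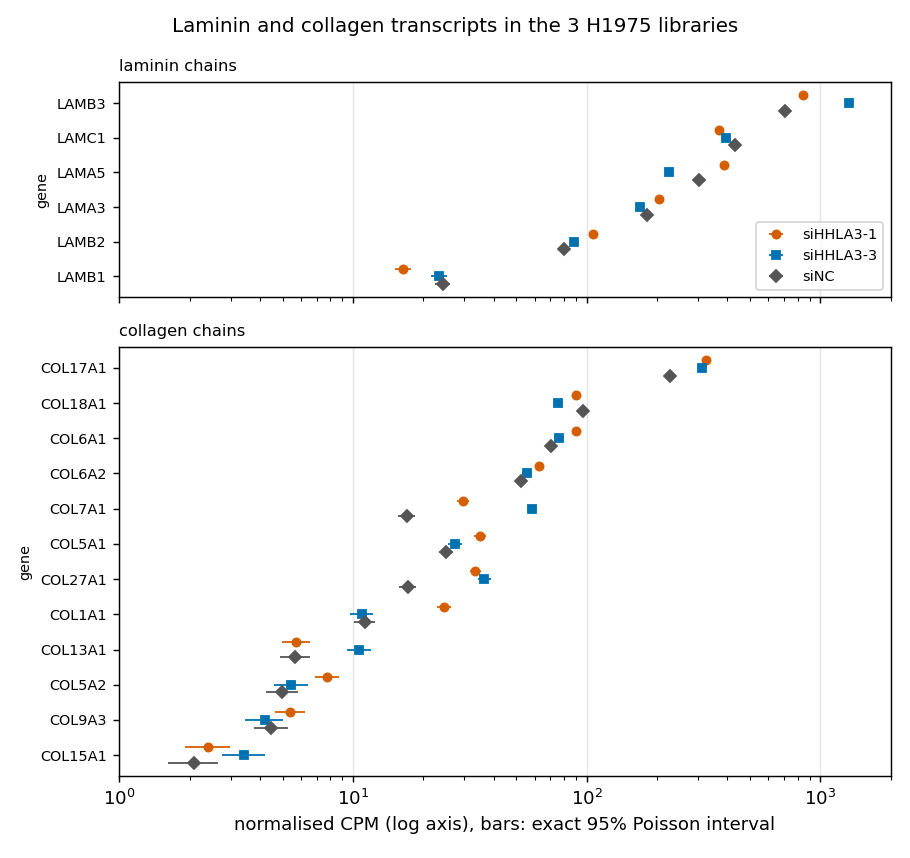
Normalised CPM (log axis) of the laminin and collagen chains (vertical axis) in the siHHLA3-1, siHHLA3-3 and siNC libraries, with exact 95% Poisson intervals. LAMB3 and COL7A1 were highest with siHHLA3-3, at 1331 and 58.4 CPM, and COL1A1 was highest with siHHLA3-1, at 24.5 CPM.

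**Figure D4:**
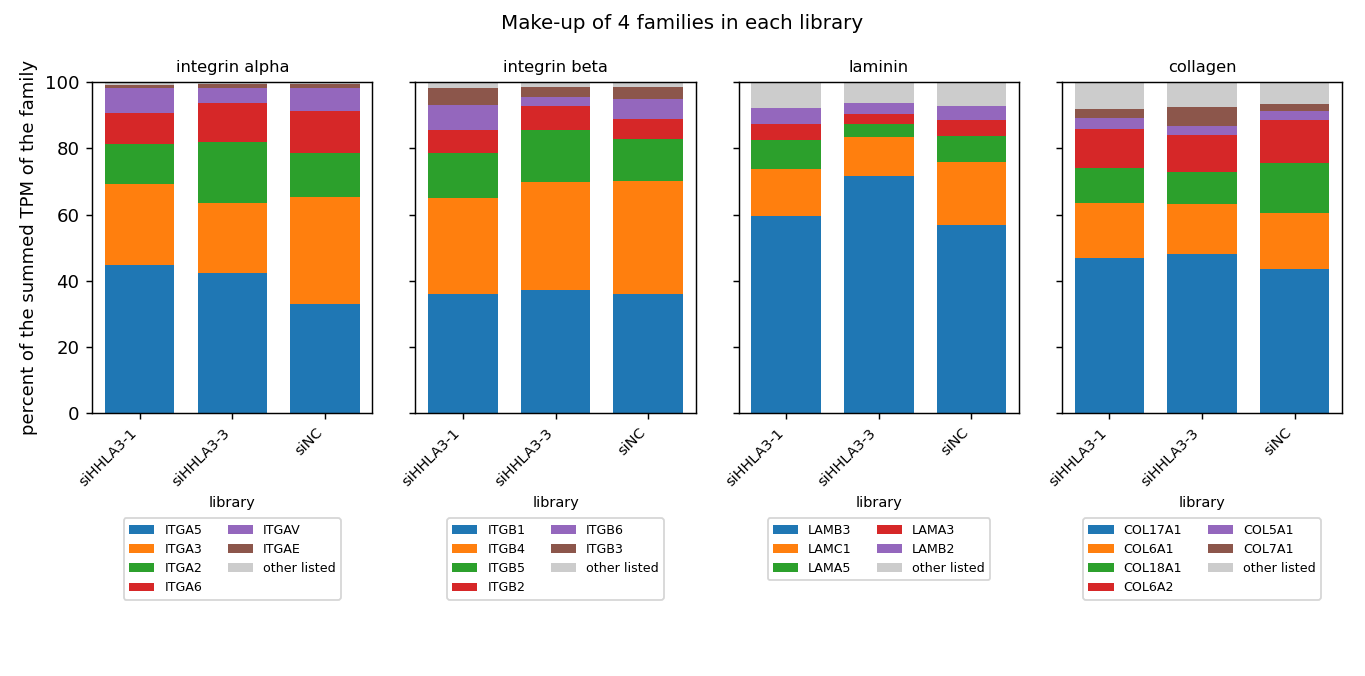
Share of chains in the summed TPM of their family (vertical axis, percent; grey pools the chains without a colour of their own), for the siHHLA3-1, siHHLA3-3 and siNC libraries. LAMB3 held 59.4%, 71.8% and 56.9% of the laminin total with siHHLA3-1, siHHLA3-3 and siNC, and ITGA5 held 44.9%, 42.2% and 33.0% of the integrin alpha total.

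MMP13 and MMP15 were the leading proteases per length. MMP13, a secreted collagenase, stood at 53.7 CPM with siHHLA3-1, 33.8 CPM with siHHLA3-3 and 32.3 CPM with siNC. It was 1.66-fold higher with siHHLA3-1 (1.54 to 1.79), while its ratio was 1.04 with siHHLA3-3 (0.954 to 1.14). MMP1, another secreted collagenase, lay the other way with siHHLA3-1, at 3.04, 5.95 and 6.45 CPM (108, 162 and 207 counts). It was 2.12-fold lower with siHHLA3-1 (1.67 to 2.70), though its log2 ratio of CPM + 1 was -0.88. MMP13 therefore exceeded MMP1 17.1-fold in TPM with siHHLA3-1, against 5.48-fold with siHHLA3-3 and 4.84-fold with siNC.

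Of the membrane-bound MMPs, MMP15 was the most abundant per length. MMP14, the collagenase of the cell surface that activates pro-MMP2, was at 16.1, 17.5 and 13.5 CPM with siHHLA3-1, siHHLA3-3 and siNC. MMP2 itself has no value here. MMP15 was at 65.0, 66.2 and 53.2 CPM, 1.22-fold (1.15 to 1.30) and 1.24-fold higher (1.16 to 1.33), and MMP17 at 15.3, 16.6 and 14.5 CPM. MMP24 was high with siHHLA3-1 alone, at 6.98, 3.97 and 4.61 CPM. It has a listed opposite-strand neighbour, MMP24OS, at 40.0, 26.0 and 32.3 CPM in the same order, and MMP25 has MMP25-AS1 at 11.8, 9.22 and 7.42 CPM. Without knowledge of strand, the values of MMP24 and MMP25 are uncertain. MMP11, stromelysin 3, was at 13.2, 11.7 and 9.79 CPM, and MMP28, a secreted MMP of epithelia, at 4.06, 3.05 and 5.05 CPM. MMP21 and MMP25 stayed between 1.65 and 2.57 CPM.

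TIMPs had log2 ratios between -0.23 and 0.24 with siHHLA3-1 and between -0.20 and -0.03 with siHHLA3-3. TIMP1 was at 137, 116 and 131 CPM with siHHLA3-1, siHHLA3-3 and siNC, and TIMP2, which also takes part in pro-MMP2 activation, at 210, 171 and 178 CPM. TIMP3, the matrix-bound inhibitor, was at 10.6, 10.4 and 10.7 CPM, and TIMP4 at 1.63, 1.69 and 2.09 CPM. TIMP4, at 46 to 67 counts, was furthest from siNC of the 4 as a ratio of CPM, 1.28-fold lower with siHHLA3-1 (0.886 to 1.85). Summed TIMP over summed MMP, in TPM, was 2.77 with siHHLA3-1, 2.66 with siHHLA3-3 and 3.30 with siNC, with MMP sums of 175, 153 and 131 TPM and TIMP sums of 484, 409 and 432 TPM.

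**Figure D5:**
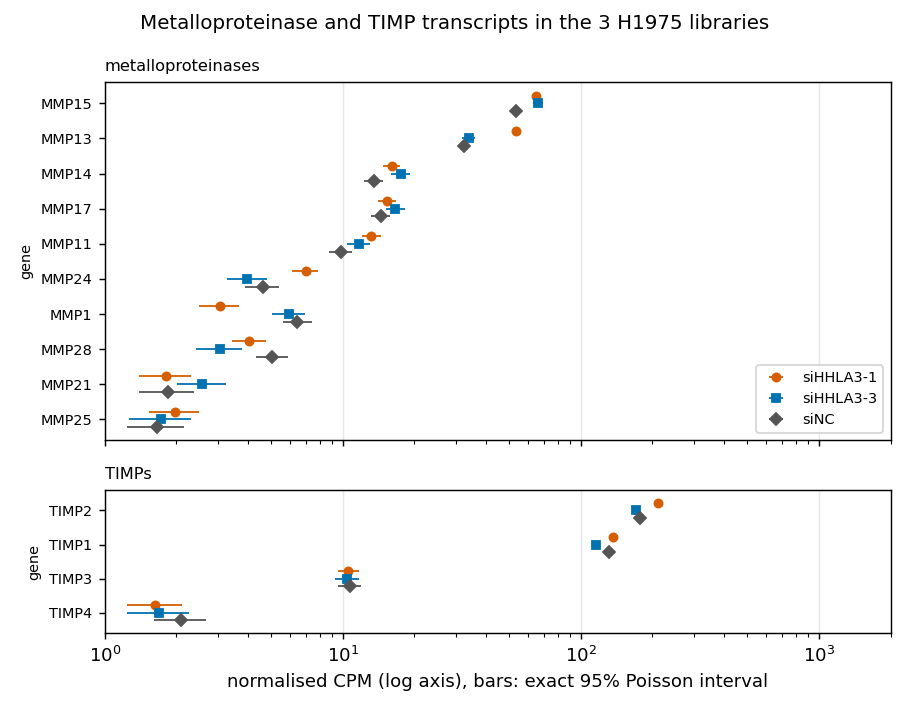
Normalised CPM (log axis) of the MMPs and TIMPs (vertical axis) in the siHHLA3-1, siHHLA3-3 and siNC libraries, with exact 95% Poisson intervals. MMP13 was higher and MMP1 lower with siHHLA3-1, at 53.7 and 3.04 CPM, against 32.3 and 6.45 CPM with siNC.

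Promoters of 33 of the 50 genes are held in the RefSeq table on GRCh38.p14, from 250 bases before to 50 bases after the start. For each gene 1 entry was kept, the first when sorted by coordinate. Any other start of a gene was not searched, and the kept start was not checked for use in these cells. The files' build named in the submitters' processing notes is hg19, so these coordinates are for the RefSeq build only. A motif of AP-1, the FOS and JUN factor known at many matrix genes (TGANTCA, both strands), lay in 3 of the 33, LAMA3, LAMB3 and ITGA5, or 9.09%, against 7.91% of all 27305 promoters. LAMB3 has 1 match at position -67 from the start, LAMA3 has 2 at -125 and -69, and ITGA5 has 1 at -6. COL7A1, with the highest ratio of all 50, has none in this window and 1 match of TATAAA (both strands), at -124, which 12.1% of all promoters hold. A match is a string of letters and not a shown site. The 4 promoters are printed because they belong to the epithelial laminin chains that diverged, the leading alpha chain and the furthest collagen. Capitals mark the AP-1 and TATAAA matches.
LAMB3 promoter, chr1:209651325-209651624, minus strand: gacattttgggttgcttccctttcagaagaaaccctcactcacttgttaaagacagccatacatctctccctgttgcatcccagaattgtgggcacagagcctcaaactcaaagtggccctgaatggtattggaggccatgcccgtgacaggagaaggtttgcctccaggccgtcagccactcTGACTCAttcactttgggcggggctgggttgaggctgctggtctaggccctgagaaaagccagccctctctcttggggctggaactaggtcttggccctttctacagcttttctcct
LAMA3 promoter, chr18:23872770-23873069, plus strand: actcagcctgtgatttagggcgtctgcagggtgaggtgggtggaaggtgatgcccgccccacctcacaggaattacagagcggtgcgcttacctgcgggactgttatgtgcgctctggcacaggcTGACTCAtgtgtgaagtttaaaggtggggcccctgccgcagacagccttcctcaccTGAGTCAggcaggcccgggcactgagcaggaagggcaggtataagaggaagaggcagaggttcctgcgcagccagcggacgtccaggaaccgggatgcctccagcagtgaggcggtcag
ITGA5 promoter, chr12:54419217-54419516, minus strand: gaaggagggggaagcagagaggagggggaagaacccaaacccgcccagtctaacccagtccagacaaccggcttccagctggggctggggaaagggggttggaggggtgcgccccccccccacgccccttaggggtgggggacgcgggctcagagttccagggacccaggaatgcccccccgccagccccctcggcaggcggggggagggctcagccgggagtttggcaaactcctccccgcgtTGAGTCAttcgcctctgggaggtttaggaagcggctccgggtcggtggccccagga
COL7A1 promoter, chr3:48595280-48595579, minus strand: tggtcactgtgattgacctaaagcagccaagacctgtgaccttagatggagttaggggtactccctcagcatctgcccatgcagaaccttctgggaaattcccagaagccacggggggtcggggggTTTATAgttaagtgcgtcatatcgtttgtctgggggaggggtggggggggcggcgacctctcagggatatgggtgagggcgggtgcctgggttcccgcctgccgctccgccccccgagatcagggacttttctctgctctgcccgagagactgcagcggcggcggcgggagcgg

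LAMA3 carries 2 AP-1 matches and was at 0.935 of siNC with siHHLA3-3, while LAMB3 carries 1 and was 1.87-fold higher there. The part of AP-1 in these values was not tested. The GC box letters GGGCGG (both strands) lay in 24 of the 33 promoters, or 72.7%, against 43.8% of all. Median GC content was 65.7% in the 33 and 58.0% in all promoters, so the box is found in a GC-rich set.

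Short matches of an siRNA to the 3' untranslated region (UTR) of other messages are known to lower those messages, as microRNA seeds do. The siRNA sequences are not given in the sources used here. All 7-base sequences were therefore ranked by the ratios of genes with and without them, over 10450 genes that exclude the 50. The first was CAGAATG with siHHLA3-1 and GTGAACT with siHHLA3-3, the same with the scan widened to 11735 genes. Among those other genes, carriers of GTGAACT had a median log2 ratio of -0.21 with siHHLA3-3, beside -0.0024 for the rest. Carriers of CAGAATG had a median of -0.09 with siHHLA3-1, beside -0.01. Each sequence was picked from 16324 for low ratios among largely these same genes. Lower medians of carriers follow from that choice and are no test of an siRNA match.

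Of the 50 genes, 1 carries GTGAACT, MMP24, where 11.4% of other genes do, and 7 carry CAGAATG, or 14.0% against 16.8%. The 7 are COL5A1, COL6A2, ITGB3, ITGB6, LAMA3, LAMC1 and TIMP1. With siHHLA3-1 their median log2 ratio was 0.25, beside 0.23 for the 43 members without it, and LAMC1 alone was below 0, at -0.23. With siHHLA3-3 the median of the 7 was -0.13, with 5 below 0, beside 0.10 for the 43, with 18 below 0. Neither ITGB6 with siHHLA3-3 nor MMP1 with siHHLA3-1, the lowest members, carries the sequence that ranked first for that siRNA. The log2 ratio of MMP24 was 0.51 with siHHLA3-1 and -0.18 with siHHLA3-3. The part of such matches in the values of the 50 was not tested. Printed are the single GTGAACT match and the CAGAATG matches of the lower LAMC1 and of 2 integrin chains that were higher with siHHLA3-1, read from GENCODE release 29 transcripts. Capitals mark the 7 bases.
MMP24, chromosome 20, UTR base 736: tgaggctttagGTGAACTagaggtgactg
LAMC1, chromosome 1, UTR base 2574: gatggctgctgCAGAATGctggttgacac
ITGB6, chromosome 2, UTR base 1215: aaactaaggctCAGAATGagtagagctgg
ITGB3, chromosome 17, UTR base 264: agcctttgtccCAGAATGcctcctgcagg

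The genes that work with these families were examined in 5 lists. For reading their counts, the 2-fold share among the 13879 genes was 0.973% upward and 0.382% downward with siHHLA3-1, and 0.807% upward and 1.48% downward with siHHLA3-3. Adaptors that tie integrins to actin had 24 members past the filter. With siHHLA3-1, 1 was at least 2-fold higher and 0 lower, with a median log2 ratio of -0.03. With siHHLA3-3, 0 were higher and 0 lower, with a median of -0.25, and 19 of the 24 were below 0, beside 7141 of 13879 of all genes, whose median was -0.01. TLN2, a talin, was at 9.74 CPM with siHHLA3-1, 8.96 CPM with siHHLA3-3 and 18.2 CPM with siNC. TNS1, a tensin, was at 15.6, 8.19 and 7.20 CPM, and the scaffold paxillin, PXN, at 129, 67.1 and 123 CPM. The focal adhesion kinase relative PTK2B was at 88.9, 72.7 and 60.4 CPM.

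Other matrix glycoproteins and ligands had 12 members, of which 0 were 2-fold different with siHHLA3-1 and 1 was higher with siHHLA3-3. The medians were 0.16 and -0.24. The higher gene was CCN1, an integrin ligand of the matrix, at 104, 135 and 66.7 CPM. THBS1, thrombospondin, was at 105, 118 and 147 CPM, and TGFBI, an abundant integrin ligand, at 3470, 2868 and 3916 CPM. Among 20 genes of collagen processing, 0 were 2-fold different with either siRNA, with medians of 0.001 and 0.10. The collagen chaperone SERPINH1 was at 131, 97.6 and 93.3 CPM, and the lysyl hydroxylase PLOD2 at 181, 248 and 188 CPM.

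Among 18 cell surface proteases and inhibitors, 0 were 2-fold different with either siRNA. Their medians were 0.12 with siHHLA3-1 and 0.002 with siHHLA3-3, with 14 and 9 of 18 above 0, beside 6693 and 6738 of the 13879 genes. The urokinase receptor PLAUR was at 215, 180 and 145 CPM with siHHLA3-1, siHHLA3-3 and siNC. Among 10 other matrix receptors, 0 were 2-fold different, with medians of 0.06 and 0.01. The syndecan SDC4 was high in both knockdown libraries, at 1015, 936 and 535 CPM, with log2 ratios of 0.92 and 0.81. The collagen receptor kinase DDR1 was at 130, 104 and 97.2 CPM.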

How the data were processed

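The authors deposited 1 table with 4 values per library. Counts are whole reads per gene as deposited, not normalised. CPM are the deposited counts per library total, per the file headers. TPM and FPKM, as deposited, also correct for gene length. No gene in the table has FPKM summing to less than 1.00 over the libraries, so lower genes were left out. The submitters' processing notes name the build hg19 and the tools Bowtie2, TopHat2, HISAT and HISAT2. The counter, annotation and use of strand are not given in the sources used here.

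Library totals were recovered from counts and CPM and were 35069930 with siHHLA3-1, 26950852 with siHHLA3-3 and 32813003 with siNC. Counts were scaled with TMM factors (edgeR 4.0.16, R 4.3.3) of 1.01, 1.01 and 0.978. Log2 ratios used a pseudocount of 1 CPM, and of 1 TPM or 1 FPKM where those values were used. A gene was counted at a mean of at least 1 CPM and a 2-fold difference. Where TPM or FPKM were used, the filter was a mean of at least 1 TPM or 1 FPKM. A count of 3, taken as the floor, is 0.0845, 0.110 and 0.0935 CPM. Alternatives were a 1.5-fold threshold, a counting interval beside the 2-fold rule, TPM, FPKM, a mean of 5 CPM or no filter, a pseudocount of 0.1, plain library totals, and size factors from DESeq2 1.42.0. 3' UTRs were the longest of each gene's coding transcripts in the basic set of GENCODE release 29. Ranking used a t statistic for 7-base sequences in at least 30 genes. The methods were tested on simulated data. Python 3.11.15, numpy 2.4.6, scipy 1.17.1, pandas 2.3.3 and matplotlib 3.10.9 were used.

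Members with a mean of at least 5 CPM (41 of 50) could be named with values, and up to 4 genes of each partner list by size of the mean ratio. Values given for members under 5 CPM, and those of antisense genes, the pseudogene, CDH5 and KDR, were added after they were seen. The members and lists were chosen with earlier results of these data known. Some genes are not reported here by name. They remain in the counts, sums and medians.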

Additional observations from a re-analysis of the deposited data

How the results depend on the processing

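The counts of members past 2-fold were small, and moved with the scale and with the number added before the log. An added 1 weighs more where TPM or FPKM is smaller than CPM. COL27A1, for example, had 9.32 TPM and 36.5 CPM with siHHLA3-3. A pseudocount of 0.1 gave 2 higher and 1 lower with siHHLA3-1, adding ITGAX and MMP1, and 1 lower with siHHLA3-3, adding ITGB6. The deposited TPM plus 1 gave 1 higher with siHHLA3-3. The deposited FPKM plus 1 gave 0 higher with siHHLA3-1, 1 higher with siHHLA3-3, and 1 lower between siHHLA3-3 and siHHLA3-1. A 1.5-fold threshold gave 7 higher and 1 lower with siHHLA3-1, 4 and 1 with siHHLA3-3, and 4 and 8 between siHHLA3-3 and siHHLA3-1. The other counts were within 1.5 times under these settings, and under DESeq2 size factors, library totals, both filters and the counting interval. The median log2 ratio of the members ranged from 0.24 to 0.29 with siHHLA3-1, from 0.05 to 0.11 with siHHLA3-3, and from -0.17 to -0.07 between siHHLA3-3 and siHHLA3-1. Each median is over the members past the filter of its setting, 40 with FPKM and 41 with a mean of 5 CPM. Of the ratios of single genes, 6 of 123 changed sign with TPM, 4 of 114 with FPKM and 4 of 123 with library totals alone, none larger in size than 0.06. No paired analysis was possible because each group holds 1 library. With 1 library per group, counting intervals say nothing about the spread between cultures. Depth limits most the members with the fewest counts, such as TIMP4 and MMP25.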
